A study of Mus musculus with 6 samples.

Results

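The small leucine-rich proteoglycans are secreted matrix proteins with a core of leucine-rich repeats, and 8 of their genes were followed here: Dcn (decorin), Lum (lumican), Bgn (biglycan), Fmod (fibromodulin), Ogn (osteoglycin), Aspn (asporin), Prelp (prolargin) and Omd (osteomodulin). They were chosen by name, and the 8 rows DCN, LUM, BGN, FMOD, OGN, ASPN, PRELP and OMD were each found once among the 30774 gene rows of the array tables. RNA came from whole testes of C57BL/6 male mice aged 12 days, 3 wild-type and 3 ScAtrxKO, each hybridized to 1 array of the Illumina MouseWG-6 v2 BeadChip. In ScAtrxKO mice the floxed Atrx gene, which encodes a chromatin remodeling protein, was inactivated by AMH-Cre, a recombinase driven by a promoter of Sertoli cells, the somatic cells of the seminiferous tubules. Other testicular cells were left to keep the gene, and whole testes hold all of them together. The paper counts testes without stating how many animals gave them, and p-values therefore measure only the spread between samples, which may be technical.

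Small leucine-rich proteoglycans lie on the surface of collagen fibrils, where they set how thick the fibrils grow and how they are spaced. Most carry sugar chains, which are chondroitin or dermatan sulphate in decorin and biglycan and keratan sulphate in lumican, fibromodulin and osteomodulin. Decorin and biglycan also bind growth factors of the TGF-beta family, and decorin binds several receptor tyrosine kinases. They are typical products of fibroblasts and other mesenchymal cells, which in the testis lie in the interstitium, the peritubular wall and the capsule.

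Most of the genes lie in 3 groups of neighbours in the mouse reference GRCm38.p6. Dcn and Lum are adjacent on chromosome 10, with 0 genes starting between them, and Kera and Epyc, of the same family, follow. Aspn, Omd and Ogn stand in a row on chromosome 13 behind Ecm2, again with 0 genes in between. Prelp and Fmod are on chromosome 1, with 2 genes that do not encode proteins between their starts. Bgn is on the X chromosome, as is Nyx.

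RefSeq promoter sequences of GRCm38.p6, from 250 bases before to 50 bases after the start of transcription, were matched for 6 of the 8 genes. Those of Bgn (chrX:73483351-73483650, plus strand), Ogn (chr13:49607765-49608064, plus strand) and Prelp (chr1:133921352-133921651, minus strand) are shown because these genes rose in ScAtrxKO testes. That of Fmod (chr1:134037004-134037303, plus strand) is shown because it is the neighbour of Prelp and did not pass the test. No promoter was matched for Lum and Dcn, the genes that rose the most. Capitals mark matches to TATAAA (the TATA box), CCAAT (the CCAAT box), GGGCGG (the GC box), TGANTCA (the AP-1 motif) and CAGACA (a SMAD motif) on either strand.
Bgn: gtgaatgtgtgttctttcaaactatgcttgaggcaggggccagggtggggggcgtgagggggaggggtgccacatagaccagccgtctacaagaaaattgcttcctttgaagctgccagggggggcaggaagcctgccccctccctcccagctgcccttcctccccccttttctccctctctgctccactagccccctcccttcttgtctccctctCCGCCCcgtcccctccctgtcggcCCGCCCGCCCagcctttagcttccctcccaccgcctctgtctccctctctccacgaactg
Ogn: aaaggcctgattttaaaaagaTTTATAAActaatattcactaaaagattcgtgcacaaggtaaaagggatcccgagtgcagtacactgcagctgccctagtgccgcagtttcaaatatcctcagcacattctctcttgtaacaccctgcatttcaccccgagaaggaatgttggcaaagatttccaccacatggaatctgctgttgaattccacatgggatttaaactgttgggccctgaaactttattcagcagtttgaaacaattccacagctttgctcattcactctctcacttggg
Prelp: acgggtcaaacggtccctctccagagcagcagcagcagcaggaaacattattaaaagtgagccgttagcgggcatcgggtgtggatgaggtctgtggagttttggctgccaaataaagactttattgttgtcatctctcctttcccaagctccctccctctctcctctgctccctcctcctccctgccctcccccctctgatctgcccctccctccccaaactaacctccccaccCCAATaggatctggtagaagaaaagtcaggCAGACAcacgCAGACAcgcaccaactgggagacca
Fmod: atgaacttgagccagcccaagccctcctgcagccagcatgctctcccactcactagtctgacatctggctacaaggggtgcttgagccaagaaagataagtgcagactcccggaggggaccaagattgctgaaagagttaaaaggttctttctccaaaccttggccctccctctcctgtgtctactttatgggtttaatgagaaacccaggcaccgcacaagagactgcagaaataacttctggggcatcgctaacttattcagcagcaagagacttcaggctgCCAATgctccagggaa

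The 4 promoters differed in their matches, although Prelp and Fmod both had a CCAAT box. Bgn had 3 matches to the GC box on the minus strand, which begin 34, 10 and 6 bases before the start, and the last 2 of them overlap. The GC box is found in 35.7% of the 32851 promoters. Prelp had CAGACA at bases 16 and 26 after the start, a motif of 21.0% of promoters, and a CCAAT box 15 bases before the start. Fmod had a CCAAT box at base 35, and 37.4% of promoters have one. Ogn had TATAAA on both strands 229 and 227 bases before the start, where the matches overlap, and 13.6% of promoters have this motif. TGANTCA, in 7.81% of promoters, was in 0 of the 6. These are matches of letters and nothing was measured at them.

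Of the 8 proteoglycan genes, 5 rose in ScAtrxKO testes, 0 fell, 2 did not pass the test and 1 was not tested. Lum rose by 2.23-fold (95% interval 1.96 to 2.52) and Dcn by 1.59-fold (1.47 to 1.72), and these 2 also passed the fold limit of 1.5. Bgn, Prelp and Ogn rose by 1.36-, 1.35- and 1.26-fold, below that limit. Fmod and Omd had intervals that include no change, and Aspn was not detected. The test was limma's on the deposited normalized log2 values, with p-values adjusted by the Benjamini-Hochberg method over all 13026 rows detected on at least 1 array, at a detection p under 0.01. Of those rows, 7.47% passed an adjusted p under 0.05 with a higher value in ScAtrxKO testes and 5.50% with a lower one. With the 1.5-fold limit, 1.02% were called higher and 0.276% lower. For 5 of the 7 tested genes all ScAtrxKO values were above all wild-type values, as they were for 16.2% of all tested rows, and 17.6% of rows had them all below. The median log2 fold change was 0.43 over the 7 tested proteoglycan rows and -0.01 over all tested rows. In whole testes, more cells of a type and more RNA per cell cannot be told apart.

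The arrays themselves differed in brightness, which touches every intensity given below. The mean intensity before normalization was between 368 and 381 on the wild-type arrays, 349.8 on that of ScAtrxKO replicate 1 and 469 and 458 on those of replicates 2 and 3. Between 10493 and 10917 rows were detected on each array at a detection p under 0.01. Atrx was detected on 0 of the 6 arrays, with intensities from 2.2 to 5.6, so it gave no check of the genotypes. Set against the summed intensity of its own array, with rows below 0 counted as 0, the sum of the 8 proteoglycan rows was 0.101%, 0.105% and 0.0981% in wild-type testes. It was 0.147%, 0.154% and 0.147% in ScAtrxKO testes, so that the groups did not overlap and ScAtrxKO replicate 1 was as high as the brighter arrays. Bgn and Dcn make up most of this sum.

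Lum encodes lumican, the keratan sulphate proteoglycan best known from the cornea. Its background-subtracted intensity was 239.5, 227.6 and 173.8 in wild-type replicates 1 to 3 and 709, 1101 and 881 in ScAtrxKO replicates 1 to 3. The lowest ScAtrxKO value was thus far above the highest wild-type value. On the normalized log2 scale the means were 8.53 ± 0.115 (SD, n = 3) and 9.68 ± 0.127 (SD, n = 3), which is a rise of 1.15 (standard error 0.08, adjusted p = 2.2e-04 from limma). Lum ranked 21 of the 13026 tested rows by increase. Among the scalings the deposited one gave the smallest change, as the log2 fold change of Lum was 1.46 under neqc, 1.86 with log2 values and quantile normalization and 1.86 with median scaling. The ratio of the mean intensities was 4.20.

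Dcn encodes decorin, which binds collagen through its core protein and carries a single sugar chain. Its intensity was 3156, 3001 and 3304 in the wild-type testes and 4854, 6148 and 6041 in the ScAtrxKO testes. The 3 wild-type values lay close together and well below the ScAtrxKO values. The normalized log2 value was 11.5 ± 0.0658 (SD, n = 3) in the wild-type group and 12.2 ± 0.0402 (SD, n = 3) in ScAtrxKO testes. The change was 0.67 (standard error 0.05, adjusted p = 2.8e-04 from limma), and it was between 0.63 and 0.70 over all alternative settings. Dcn ranked 97 of the tested rows. The treat method of limma asks whether a change exceeds 1.5-fold. By treat, Lum passed (unadjusted p = 4.5e-05, adjusted p = 0.0271). Dcn did not pass, as its treat p was above 0.05 even before adjustment (unadjusted p = 0.0616).

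Bgn encodes biglycan, a relative of decorin that carries paired sugar chains and is also released as a signal to innate immune receptors. Its intensity was 6180, 7368 and 6440 in the wild-type group and 8276, 11896 and 10786 in ScAtrxKO testes. The groups did not overlap, with wild-type replicate 2 and ScAtrxKO replicate 1 nearest to each other before normalization. On the normalized scale the values were 12.58, 12.82 and 12.58 in the wild-type group and 13.07, 13.19 and 13.05 in ScAtrxKO testes. The change was 0.45 (standard error 0.07, adjusted p = 0.00805 from limma). Its adjusted p was 0.0673 with log2 values and quantile normalization and 0.0634 with median scaling, and between 0.00329 and 0.0673 over the alternatives, while the size of the change stayed between 0.40 and 0.53.

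**Figure D1:**
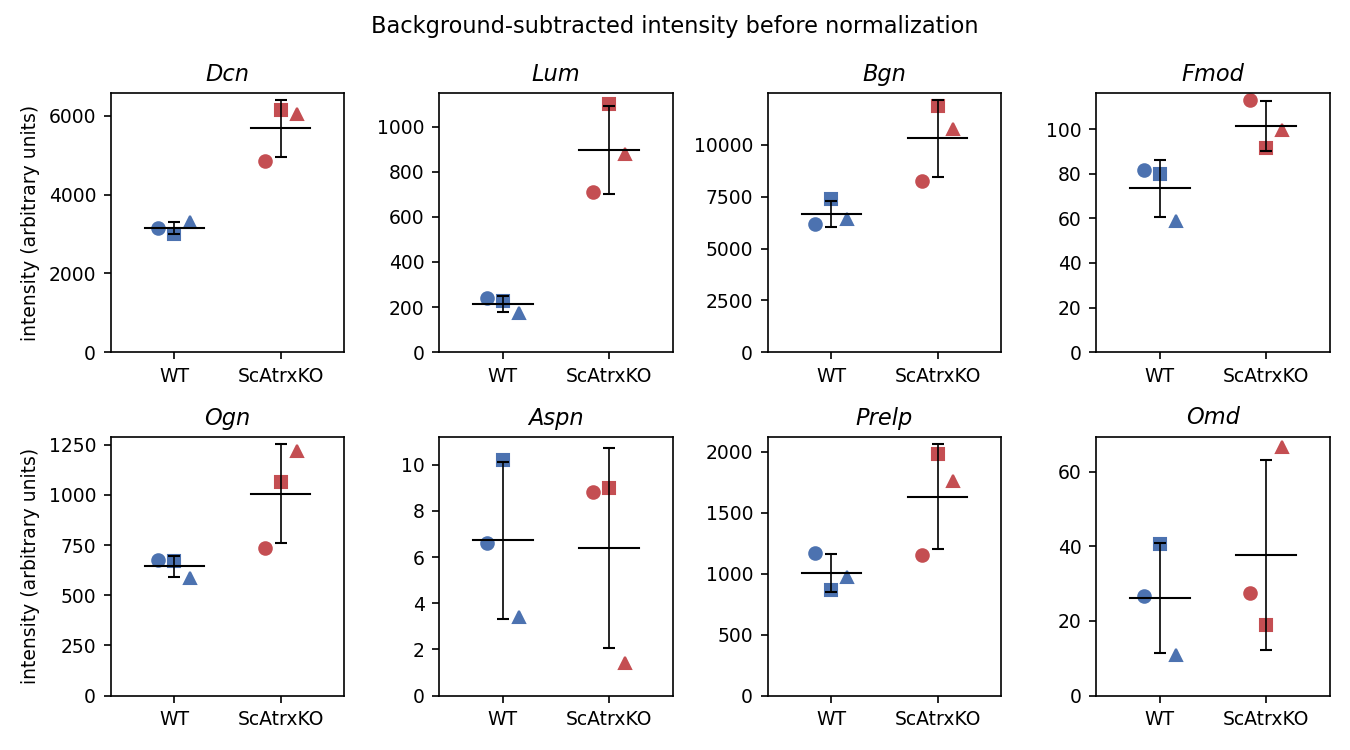
Background-subtracted intensity before normalization (arbitrary units, linear axes from 0, each gene with its own scale) of the 8 proteoglycan genes in the wild-type group and ScAtrxKO testes. Circles, squares and triangles are replicates 1, 2 and 3 of each genotype, and lines and bars are means and SD of 3 testes. For Lum, Dcn and Bgn every ScAtrxKO point lies above every wild-type point, Prelp in ScAtrxKO replicate 1 falls within the wild-type range, and Aspn stays under 11 throughout.

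Prelp encodes prolargin, which ties collagen to basement membranes. Its intensity was 1172, 864 and 976 in the wild-type group and 1151, 1982 and 1763 in ScAtrxKO testes. ScAtrxKO replicate 1, on the dimmest array, lay within the wild-type range before normalization. After normalization its value was 10.22 against 10.19 for wild-type replicate 1, so that the groups were apart by 0.03, and the other 2 ScAtrxKO values were 10.56 and 10.45. The change was 0.43 (standard error 0.11, adjusted p = 0.0437 from limma). This call was the least stable: leaving out wild-type replicate 2 gave an adjusted p of 0.134, wild-type replicate 3 one of 0.0950, ScAtrxKO replicate 2 one of 0.127 and ScAtrxKO replicate 3 one of 0.0954. It was 0.111 under neqc, and it ranged from 0.0191 to 0.147 over the 17 alternative settings, of which 7 kept the call.

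Ogn encodes osteoglycin, also called mimecan, a regulator of collagen fibril growth. Its intensity was 677.6, 669.2 and 584.6 in the wild-type group and 733.9, 1067 and 1219 in ScAtrxKO testes. ScAtrxKO replicate 1 was the lowest of its group but above each wild-type value. The normalized values were 9.55, 9.52 and 9.37 in the wild-type group and 9.68, 9.78 and 9.96 in the ScAtrxKO group, which is a rise of 0.33 (standard error 0.08, adjusted p = 0.0308 from limma). The call was lost without wild-type replicate 2 (adjusted p = 0.0805), wild-type replicate 3 (0.0754), ScAtrxKO replicate 2 (0.0746) or ScAtrxKO replicate 3 (0.0587). Under neqc the change was larger, 0.53, but its adjusted p was 0.0745, and over all alternatives the adjusted p ranged from 0.0197 to 0.106.

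Fmod encodes fibromodulin, which shares its collagen binding site with lumican. It was dim, with intensities of 81.8, 79.7 and 58.8 in the wild-type group and 113.3, 91.5 and 99.6 in ScAtrxKO testes. It was detected on 1 of 3 wild-type and 3 of 3 ScAtrxKO arrays, the other wild-type arrays having detection p-values of 0.0171 and 0.0103. Before normalization each ScAtrxKO value was above each wild-type value, but after normalization the groups overlapped, with 8.07, 8.05 and 7.97 in the wild-type group and 8.22, 8.02 and 8.05 in ScAtrxKO testes. The change was 0.07 (standard error 0.06, adjusted p = 0.541 from limma), with a 95% interval from -0.08 to 0.21.

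Omd and Aspn, the neighbours of Ogn, gave little or no signal. Omd encodes osteomodulin, a keratan sulphate proteoglycan of bone, and had intensities of 26.7, 40.5 and 11 in the wild-type group and 27.6, 18.9 and 66.5 in ScAtrxKO testes. It was detected on wild-type replicate 2 and ScAtrxKO replicate 3 only. Its change was 0.03 (standard error 0.06, adjusted p = 0.759 from limma), with an interval from -0.10 to 0.17. Aspn encodes asporin, which binds collagen and TGF-beta. It was detected on 0 of the 6 arrays, had intensities between 1.4 and 10.2 and a lowest detection p of 0.183, and therefore has no fold change here. Of the 3 neighbours on chromosome 13, Ogn alone was detected on all 6 arrays, and Ecm2 beside them was detected on 0.

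**Figure D2:**
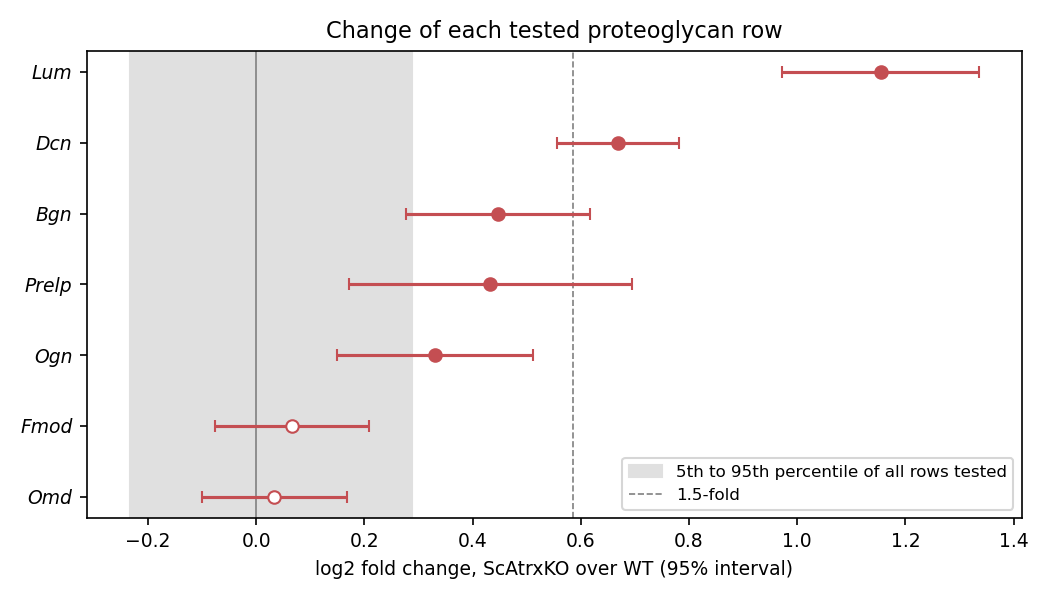
Log2 fold change of ScAtrxKO over wild-type testes with its 95% interval from limma for the 7 tested genes, filled where the adjusted p was under 0.05. The grey band is the 5th to 95th percentile of all 13026 tested rows (-0.23 to 0.29) and the dashed line a change of 1.5-fold. The points of Lum at 1.15 and Dcn at 0.67 lie right of the line. Those of Bgn, Prelp and Ogn lie between the band and the line, and those of Fmod and Omd inside the band. The interval of Dcn crosses the line, those of Bgn and Prelp cross the line and reach into the band, and that of Ogn reaches into the band.

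Lum had the largest change and Dcn the next largest under the deposited normalization, neqc, log2 quantile normalization and median scaling, whereas the order of Bgn, Prelp and Ogn differed between them. This order is a description, since with 3 arrays against 3 an exact permutation test (two-sided) of a difference between genes cannot go below p = 0.1.

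**Figure D3:**
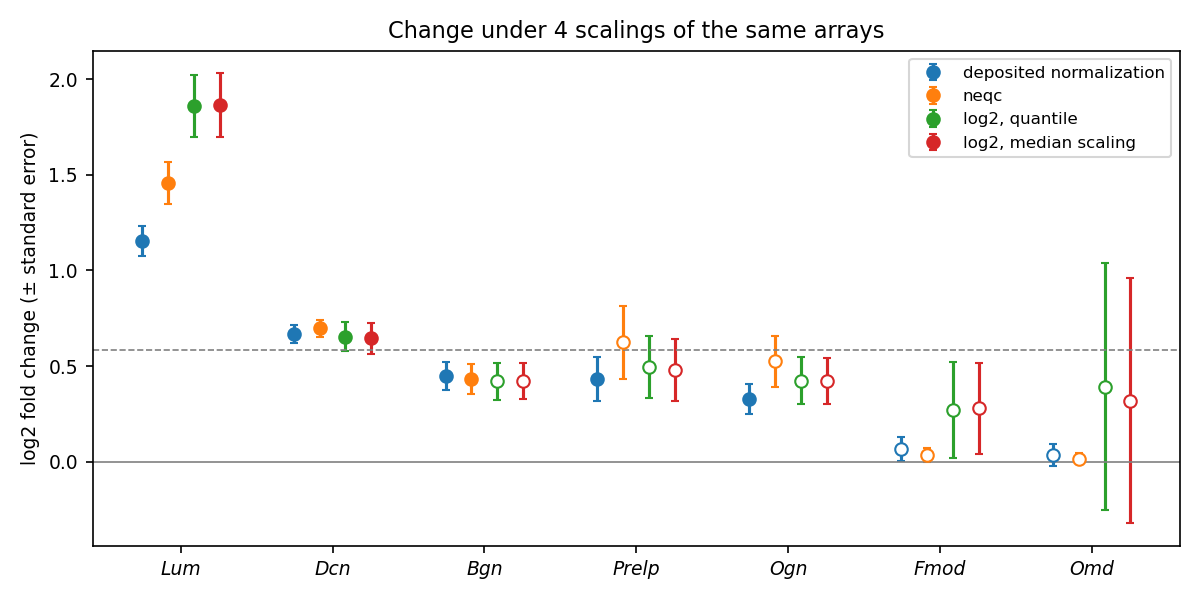
Log2 fold change (± standard error) of the 7 tested genes under the deposited normalization, neqc, log2 values with quantile normalization and log2 values with median scaling, filled where the adjusted p was under 0.05. The dashed line is a change of 1.5-fold. Lum moves from 1.15 to 1.86 with the scaling and Dcn only from 0.65 to 0.70, and Prelp and Ogn are filled under the deposited normalization alone.

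**Figure D4:**
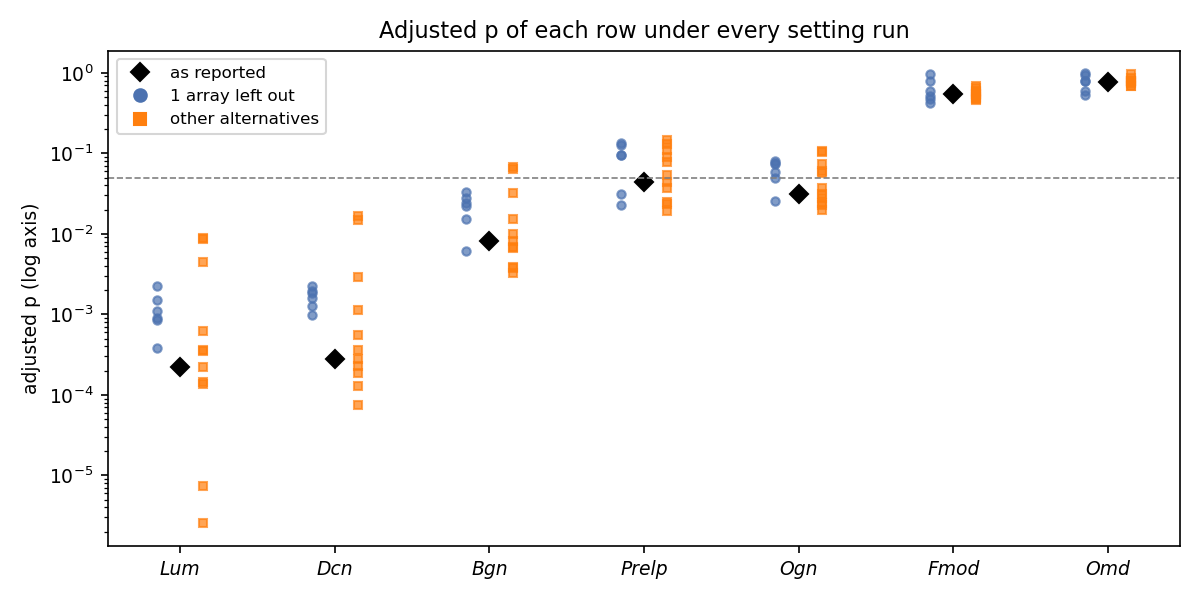
Adjusted p from limma (log axis) of each tested gene as reported (diamonds), with 1 array left out (circles) and under the other alternatives (squares), with the threshold of 0.05 dashed. Lum and Dcn stay below it under all 17 alternatives, Bgn under 15, Ogn under 8 and Prelp under 7, and Fmod and Omd stay above it.

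Other members of the family were near background. Of 10 further genes, Kera, Epyc, Optc, Chad, Chadl, Podn, Podnl1 and Ecm2 were detected on 0 arrays, and Nyx and Tsku on 1 each. Nyx, which encodes nyctalopin of the retina, changed by -0.04 (standard error 0.04, adjusted p = 0.560 from limma). Kera and Epyc, which follow Lum on chromosome 10, were thus undetected beside 2 genes that rose.

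The enzymes that build the sugar chains are given as counts, to be read beside all tested rows. Of all tested rows, 7.47% passed the adjusted p with a higher value in ScAtrxKO testes and 5.50% with a lower one. These shares also stand beside the lists below. Of 14 tested genes of chondroitin and dermatan sulphate synthesis, 1 rose, 0 fell and 13 did not pass, with a median of 0.05 against -0.01 for all tested rows. The gene that rose was Chst15, a sulphotransferase of chondroitin sulphate, by 0.30 (standard error 0.07, adjusted p = 0.0276). Under neqc, log2 quantile normalization and median scaling, 0 genes of this list passed. Of 6 tested genes of keratan sulphate synthesis, Chst2, a sulphotransferase, rose by 0.28 (standard error 0.04, adjusted p = 0.00517) and 5 did not pass. Xylt2, of the chondroitin and dermatan sulphate list, starts the chains of that list. It changed by 0.09 (adjusted p = 0.310) and is named here for that role.

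Of 13 tested proteoglycan genes outside the family, 4 rose, 0 fell and 9 did not pass, with a median of 0.02. Sdc2 and Sdc3, syndecans of the cell membrane, rose by 0.56 (standard error 0.06, adjusted p = 0.00126) and by 0.44 (standard error 0.08, adjusted p = 0.0113). Gpc1, a glypican anchored to the membrane by a lipid, rose by 0.32 (standard error 0.04, adjusted p = 0.00409). The basement membrane proteoglycan perlecan, from Hspg2, changed by 0.34 and missed the threshold (adjusted p = 0.0912). Vcan, the large proteoglycan versican, was detected on 1 array. The list medians move with the scaling, as log2 quantile normalization gave 0.26 for chondroitin and dermatan sulphate synthesis, with 0 genes past the test, and 0.36 for these other proteoglycans, with 1.

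Of 9 tested genes for collagens of banded fibrils, on which these proteoglycans sit, and their partners, 5 rose, 0 fell and 4 did not pass, with a median of 0.45. The number past the test was 4 under neqc, 3 under median scaling and 2 when log2 values were quantile normalized. Col5a1, which starts fibrils, rose by 0.57 (standard error 0.06, adjusted p = 0.00101), and Col6a3 and Col6a1, chains of the microfibrillar collagen that binds decorin and biglycan, rose by 0.46 each (adjusted p = 0.00300 and 0.00536). Col1a2, a chain of type I collagen, was the 1 gene of this list past the 1.5-fold limit, at 0.75 (standard error 0.13, adjusted p = 0.00821), and is named for that call. Of 6 tested genes for proteases that process or cleave the proteoglycans and their cofactors, 3 rose, 0 fell and 3 did not pass. Bmp1, which removes the propeptides of biglycan and of fibrillar collagens, rose by 0.44 (standard error 0.06, adjusted p = 0.00441) and its enhancer Pcolce by 0.54 (standard error 0.09, adjusted p = 0.00682). Mmp2, a gelatinase, rose by 0.91 (standard error 0.14, adjusted p = 0.00595).

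Among 10 tested genes for growth factors and receptors that small leucine-rich proteoglycans bind, 3 rose, 0 fell and 7 did not pass, with a median of 0.14. Under neqc 1 passed, with a median of 0.09, whereas median scaling and quantile normalized log2 values each gave 2, with a median of 0.24. Tgfb2, a ligand bound by decorin, rose by 0.73 (standard error 0.17, adjusted p = 0.0293), whereas Tgfb1 and Tgfb3 changed by 0.01 and 0.02. Egfr, a receptor that decorin binds, rose by 0.31 (standard error 0.04, adjusted p = 0.00463), and Tlr2, a receptor of soluble biglycan, rose by 0.18 (standard error 0.05, adjusted p = 0.0382). Tlr4, the other such receptor, was detected on 0 arrays.

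Markers of several cell types moved with the proteoglycans, and their part in the result was not tested. Beside the counts of markers, 7.47% of all tested rows passed with a higher value in ScAtrxKO testes and 5.50% with a lower one. Of 10 tested markers of fibroblasts and interstitial mesenchyme, 2 rose, 0 fell and 8 did not pass, with a median of 0.21. The same number passed under each other scaling, with medians of 0.21 under neqc, 0.51 under median scaling and 0.49 for quantile normalized log2 values. Dpt, which encodes the decorin-binding protein dermatopontin, rose by 0.87 (standard error 0.12, adjusted p = 0.00394). Pdgfra, a growth factor receptor of mesenchyme detected on 3 arrays, rose by 0.69 (standard error 0.09, adjusted p = 0.00282). Pdgfra may have entered the test only through the genotype where it was higher, so the count of 2 is a description. Thy1 and Gli1 were detected on 0 arrays. The summed intensity of the 14 rows of this list, which include Col1a1 and Col3a1, was 5783 to 6163 in the wild-type group and 8687 to 12922 in ScAtrxKO testes. Of 7 tested markers of peritubular myoid cells 1 rose, Des by 0.61 (standard error 0.07, adjusted p = 0.00167), with a median of 0.01 for the list. Their summed intensity was 11873 to 13414 in the wild-type group and 12256 to 15170 in ScAtrxKO testes, which overlapped, and Myh11, Tagln and Cnn1 were detected on 0 arrays.

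All 11 tested macrophage markers rose, with a median of 0.38. Csf1r and Adgre1 were detected on 3 arrays each, and Fcgr3 and Tyrobp on 5 each. A row detected in 1 genotype only enters the test through that genotype, so the count of 11 is a description. Cd163 and Ptprc were detected on 0 arrays. The median of the tested markers was 0.21 under neqc (9 of 11 passing) and 1.31 with quantile normalization (7 of 11 passing). Those with the smallest adjusted p were Lyz2, a lysozyme, at 0.95 (adjusted p = 0.00117), Mrc1, the mannose receptor, at 0.82 (adjusted p = 0.00124) and Laptm5 at 1.16 (adjusted p = 0.00170). The summed intensity of the macrophage markers was 2109 to 3119 in the wild-type group and 5444 to 8226 in ScAtrxKO testes. Of 9 tested endothelial markers 6 rose, among them Cdh5, which encodes the cadherin of vessel walls, by 0.46 (standard error 0.04, adjusted p = 6.2e-04), Cldn5, a tight junction protein, by 0.49 (adjusted p = 0.00190) and Esam by 0.37 (adjusted p = 0.00804), with summed intensities of 1908 to 2068 and 2718 to 3971, and Kdr and Flt1 were detected on 0 arrays. With log2 quantile normalization the median of the endothelial markers was 0.54 in place of 0.22, with 4 past the test. Of 8 tested Leydig cell markers 3 rose. Cyp11a1, the enzyme that starts steroid synthesis, rose by 0.58 (adjusted p = 4.4e-04). Insl3, a peptide hormone, rose by 0.72 (standard error 0.10, adjusted p = 0.00455). Lhcgr, the receptor of luteinizing hormone detected on 3 arrays, rose by 0.22 (adjusted p = 0.0377). Lhcgr may have entered the test only through the genotype where it was higher, so the count of 3 is a description. Summed intensities of the list were 3049 to 4398 in the wild-type group and 4967 to 11191 in ScAtrxKO testes. Hsd3b6 and Hsd17b3 were detected on 0 arrays. The median of the Leydig cell markers was 0.23, against 0.11 under neqc and 1.18 for quantile normalized log2 values, each with 2 past the test.

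Of 9 tested germ cell markers, 4 fell, 0 rose and 5 did not pass, with a median of -0.35, and Kit, the receptor of differentiating spermatogonia, changed by -0.35 (standard error 0.05, adjusted p = 0.00351). Uchl1, a ubiquitin hydrolase, changed by -0.36 (adjusted p = 0.00446), and Sall4, a transcription factor detected on 3 arrays, had intensities of 833.3, 896.7 and 925.1 in the wild-type group and 432.8, 453 and 705.3 in ScAtrxKO testes (adjusted p = 0.00353). The summed intensity of the germ cell markers was 10672 to 11849 in the wild-type group and 8582 to 10574 in ScAtrxKO testes. All 10 tested Sertoli cell markers were detected on 6 arrays, and 2 of them rose. Inha, a subunit of inhibin, rose by 0.56 (adjusted p = 0.00431) and Trf, transferrin, by 0.39 (adjusted p = 0.0134). The median of the list was 0.03 (-0.01 with median scaling). Aard had the same normalized value, 14.7, on all 6 arrays, so it could not show a change there. The summed intensity of the Sertoli cell markers was 57674 to 63238 in the wild-type group and 55394 to 76445 in ScAtrxKO testes. Aard and Cldn11 make up most of that sum. The germ cell markers Ddx4, Sycp3 and Dmc1 were detected on 0 arrays, although Dazl was detected on 6. Of 5 rows for the mesothelium of the capsule only Upk3b was detected, with a change of 0.14 (adjusted p = 0.272). Of 6 epididymal genes only Lcn8 was detected, on 2 arrays, with a change of 0.08 (adjusted p = 0.322). Of 4 tested erythroid genes 1 rose and 3 did not pass. Alas2, the first enzyme of haem synthesis in red cells, rose by 1.23 (standard error 0.05, adjusted p = 2.05e-05). It was detected on 4 arrays and was dim in the wild-type group, with intensities of 33.7, 54.3 and 29.5.

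**Figure D5:**
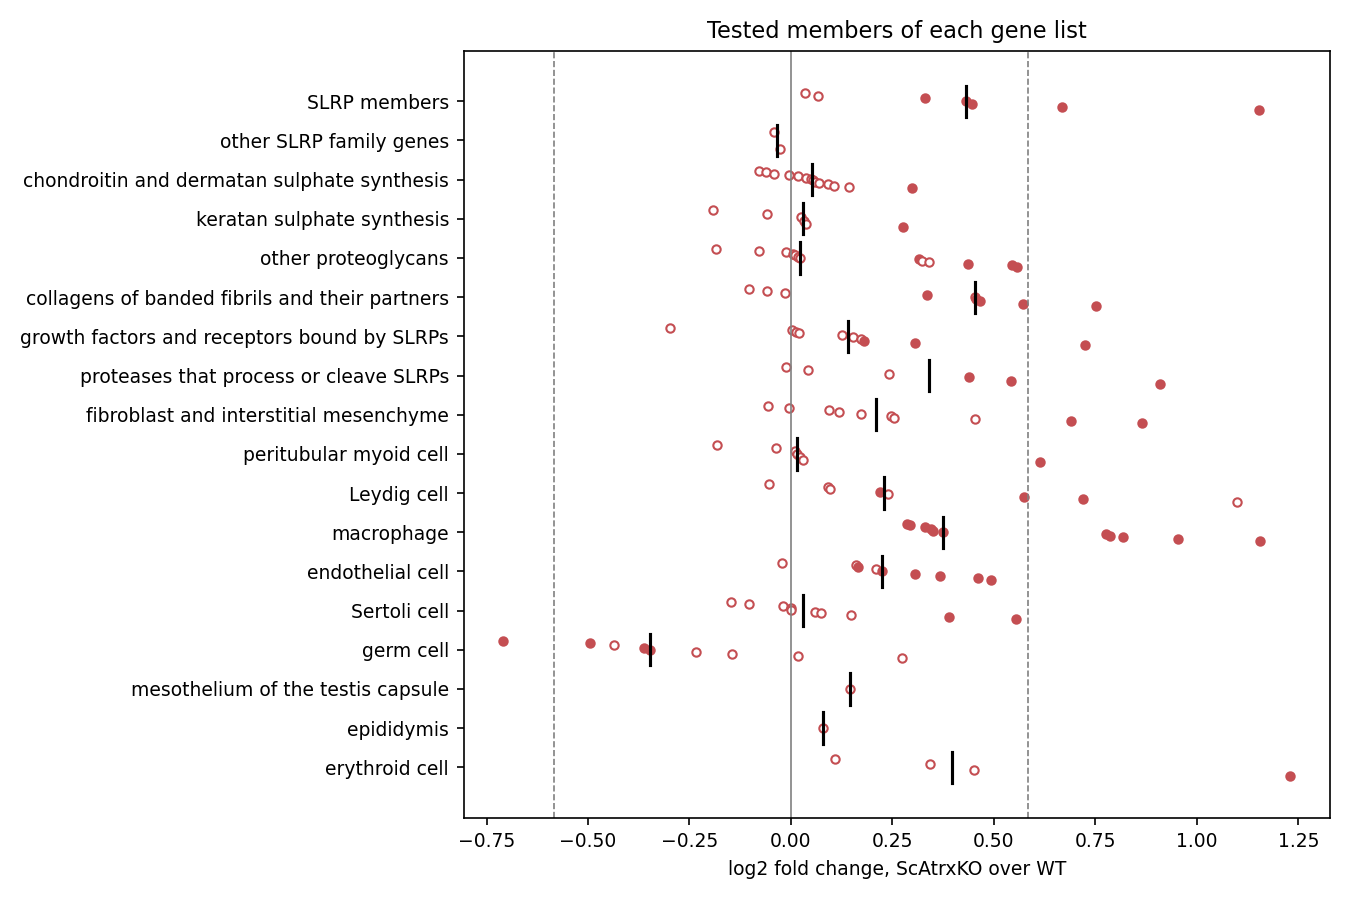
Log2 fold change of ScAtrxKO over wild-type testes for each tested member (points, filled where the adjusted p was under 0.05) of the proteoglycan genes (SLRP members) and 17 other gene lists, with the median of each list as a bar and changes of 1.5-fold dashed. The proteoglycan genes have a median of 0.43 and the collagens 0.45, whereas the lists of sugar chain synthesis have medians of 0.05 and 0.03 and the germ cell markers have a median of -0.35.

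The mean profile of the 7 tested genes, each centred on its own mean, was -0.17, -0.21 and -0.29 for wild-type replicates 1 to 3 and 0.19, 0.25 and 0.23 for ScAtrxKO replicates 1 to 3. The 5 other rows with the highest Pearson correlation to it over the 6 arrays were Ndrg2, Gpr34, Fcgrt, Adam17 and Adamts2, with r from 0.997 to 0.999. Adamts2, which removes the amino-terminal propeptide of fibrillar collagens, rose by 0.66 (standard error 0.05, adjusted p = 2.5e-04 from limma) and Fcgrt, the receptor that recycles immunoglobulin G, by 0.61 (standard error 0.05, adjusted p = 3.8e-04). Of 13018 rows compared, 359 reached an r of 0.95, since 6 arrays in 2 groups give such values to many rows that differ between the genotypes. These correlations are a description.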

How the data were processed

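Array values came from 3 wild-type and 3 ScAtrxKO testes. GenomeStudio (version not given in the sources used here) served the authors to subtract background and average probes to gene rows, and the authors deposited an intensity and a detection p-value per row and array. The number of probes behind a row is not given there. The authors deposited log2 values after variance stabilization and quantile normalization in lumi. Mutant columns M1 to M3 were read as ScAtrxKO, and the deposited table by sample differed from them by 0 over 30767 shared rows. Rows with a detection p under 0.01 on at least 1 array (13026 of 30774) were fitted with limma 3.58.1 (R 4.3.3) after the paper's methods, with a fold limit of 1.5. Deposited tables of the authors' own fold changes, p-values and GO terms were not used. List genes were matched to rows by symbol (200) or by a RefSeq synonym (8), and 4 were not matched. A further list gene is not reported here by name. The fit was also run on simulated data with independent rows, and the outcome is not given here. The planted changes were larger than those of Dcn, Bgn, Prelp and Ogn, so that run is no check of changes of their size. Genes and lists were chosen with earlier results of these data known. The text names all 8 genes, up to 3 genes of smallest adjusted p from each list (1 where none passed) and 5 rows of like profile. Further genes, among them Hspg2, Vcan, Tgfb1, Tgfb3 and Tlr4, are named outside this rule, not always with a reason. The alternatives were neqc (offset 16), log2 values floored at 1 with quantile normalization or median scaling, other detection filters, other variance models, array weights, a block for the replicate number, limma's treat and leaving out each array. The number of arrays limits precision, and low signal does so for Aspn and Omd.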

Additional observations from a re-analysis of the deposited data

How the results depend on the processing

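Lum and Dcn passed the adjusted p and the 1.5-fold limit under all 17 alternatives that gave a fold change, and limma's treat called 1 of the 2. The count of proteoglycan rows past the adjusted p was 5 as reported, 3 under neqc, 2 with log2 quantile normalization, 2 with median scaling, 3 with no detection filter and 3 to 5 when single arrays were left out. The numbers of the replicates were not taken to pair the samples. Same-numbered arrays had deviations correlated at 0.00294, 0.0467 and 0.0803, which with 3 arrays per group cannot exclude a pairing. With the replicate block the count of proteoglycan rows past the adjusted p was 3. Omd changed by -0.0038 with array weights and from -0.011 to 0.075 when single arrays were left out. Over all rows the 169 calls became 604 with log2 quantile normalization, 602 with median scaling, 25 with treat and 146 to 196 when single arrays were left out. The cause of these shifts was not tested. The median over all rows moved by less than 0.1 under each scaling. Signal over background was limiting for Aspn, detected on 0 of the 6 arrays, and Omd was detected on 2.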

Other observations

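The detection filter left out some bright rows of related genes. Of 72 rows in the gene lists that were detected on 0 arrays, 7 had a mean intensity above 100. Gpc3, a glypican that restrains growth, had an intensity of 802 ± 135 (SD, n = 3) in the wild-type group and 1184 ± 182 (SD, n = 3) in ScAtrxKO testes, with no overlap and a lowest detection p of 0.0105. Hsd17b3, the enzyme of the last step to testosterone, had 80.3 ± 13.4 (SD, n = 3) and 204.2 ± 5.20 (SD, n = 3), also with no overlap. Bcan, which encodes brevican, had 138 ± 47.2 (SD, n = 3) and 72 ± 22.4 (SD, n = 3) and was lower on each ScAtrxKO array. Col1a1, a chain of type I collagen, was the brightest of the 7, with 1194 ± 157 (SD, n = 3) and 2791 ± 520 (SD, n = 3), with no overlap and a lowest detection p of 0.0326. Bmp4, Myh11 and Ddx4 had overlapping groups, Bmp4 with 132 ± 23.0 (SD, n = 3) and 154 ± 35.6 (SD, n = 3). These rows were not tested, and they are named here with their values known. Their values are intensities before normalization, and some ScAtrxKO arrays were brighter than the wild-type arrays. The shares of rows without overlap given above are for tested rows after normalization. None is given for untested rows or for this scale, so the lack of overlap is only a description.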
